A study of Mus musculus with 23 samples.

Results

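The genes described here encode the subunits of oxidative phosphorylation, the 5 protein complexes of the inner mitochondrial membrane that turn the electrons of food into ATP. Members were chosen by name and not by any measured value. They are the protein-coding mouse genes whose symbols start with Ndufa, Ndufb, Ndufc, Ndufs, Ndufv, Uqcr, Cox4 to Cox8 or Atp5, together with Cyc1, the 4 Sdh genes and the protein-coding genes of the mitochondrial genome. Assembly factors named Ndufaf and genes marked as pseudogenes were left out. This gave 99 members among 47729 entries of the count table, 86 of them nuclear and 13 mitochondrial. The nuclear members divide into 38 of complex I, 4 of complex II, 9 of complex III, 18 of complex IV and 17 of complex V. The mitochondrial members divide into 7 of complex I, 1 of complex III, 3 of complex IV and 2 of complex V. A filter on low counts left 92 members (83 nuclear, 9 mitochondrial) among 16260 genes tested.

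RNA was sequenced from 23 libraries of macrophages and monocytes taken from the subcutaneous tissue of wildtype C57BL/6J mice, a common inbred strain, with no age or sex in the labels. One group of each cell type came from mice with no implant, the controls. The other 3 groups of each came from mice that had carried a hydrogel of poly(ethylene glycol) (PEG), a synthetic water-swollen polymer, under the skin for 2, 14 or 28 days. Each of the 8 groups held 3 biological replicates, named A to C, except the macrophage controls with 2. Macrophages were Cx3cr1+ with low Ly6C and monocytes Cx3cr1+ with high Ly6C, per the series' design note, and all tissue was digested with the enzyme blend Liberase TM.

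Complexes I and II pass electrons from NADH and succinate to ubiquinone, complex III passes them on to cytochrome c, and complex IV hands them to oxygen. Complexes I, III and IV pump protons across the membrane, and complex V, the ATP synthase, uses the return flow of protons to make ATP. The complexes are assembled from products of separate genomes, since most subunits are encoded in the nucleus and a few hydrophobic core subunits in mitochondrial DNA. Macrophages and monocytes that become inflammatory or short of oxygen are known to draw more of their ATP from glycolysis, and some subunits have isoforms whose use depends on tissue or oxygen.

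The libraries held 9303153 to 32994092 counts each (median 24722229). Levels are given as scaled CPM, where CPM was taken over the library total multiplied by its TMM factor, a scaling that assumes most genes do not differ. TMM factors were 1.24 to 1.41 in the 5 control libraries and 0.727 to 1.04 in the other 18. The 8 macrophage markers checked summed to between 8840 and 16324 scaled CPM in macrophage libraries and to between 2979 and 8265 in monocyte libraries, and the 6 monocyte markers to between 635 and 2304 against 5146 to 14740.0. Monocyte day 2 replicate A, monocyte day 14 replicate B and macrophage day 28 replicate A stood apart with low levels in genes of over 60% GC, which had median log2 deviations of -0.88, -0.80 and -0.59 from their means over all libraries. Most counts of members called that rest on these libraries, and the Cyc1 and Uqcrfs1 results at day 14, are given with and without them. Most other single genes, Ndufab1 among them, are not. On the high side, macrophage control B stood at 0.78, beside -9e-04 in macrophage control A. Monocyte control C stood at 0.56 and macrophage day 14 replicate C at 0.51.

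The 13 mitochondrial genes were not counted alike. Over all libraries, mt-Co1 held 1720023 counts, mt-Cytb 1326566 and mt-Nd1 1017599. In contrast, mt-Co3 held 154, mt-Atp6 97, mt-Co2 48, mt-Atp8 17, mt-Nd3 6 and mt-Nd4l 0. The genes with low counts, apart from mt-Atp8, have near-identical copies among annotated pseudogenes on chromosome 1. No shared window was found for mt-Atp8, which lies between mt-Co2 and mt-Atp6 and overlaps the latter. Of all windows of 75 bases, the read length, 99.9% in mt-Co3, 99.5% in mt-Co2, 99.5% in mt-Atp6, 98.7% in mt-Nd4l and 97.8% in mt-Nd3 also occur in annotated pseudogenes there. The share was 61.5% for mt-Nd4, 39.8% for mt-Co1, 5.7% for mt-Nd2 and 0 for mt-Nd1. The windows below, read from GENCODE M21 transcripts on GRCm38, show this identity for both cytochrome c oxidase genes. The mt-Co2 window lies at chrM:7316-7390 on the plus strand and its copy in Gm28661 at chr1:24615188-24615262 on the minus strand. The mt-Co3 window lies at chrM:8961-9035 on the plus strand and its copy in Gm28437 at chr1:24613543-24613617 on the minus strand.
mt-Co2: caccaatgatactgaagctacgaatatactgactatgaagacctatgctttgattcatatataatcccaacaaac
Gm28661: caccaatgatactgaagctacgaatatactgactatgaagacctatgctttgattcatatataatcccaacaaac
mt-Co3: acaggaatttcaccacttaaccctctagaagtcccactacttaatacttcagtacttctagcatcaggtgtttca
Gm28437: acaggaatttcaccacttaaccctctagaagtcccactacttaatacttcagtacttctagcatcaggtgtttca
Each pair is the same letter for letter, so a read of this stretch cannot be placed in one gene. Of the 7 chromosome 1 pseudogenes checked, 6 held 2 to 120 counts (24 for Gm28661, 120 for Gm28437), and Gm28438 held 3727. How the authors' counting treated reads with several matches is not stated in the labels, and its part in these low counts was not tested. Values of the mitochondrial genome below therefore rest on the 7 genes with over 1000 counts (mt-Nd1, mt-Nd2, mt-Nd4, mt-Nd5, mt-Nd6, mt-Cytb and mt-Co1), and the other 6 are uncertain. Of the 7, mt-Nd4 and mt-Co1 are less certain because of the windows they share. Among the 5 tested mitochondrial genes with at most 20% shared, 5 rose in day 2 macrophages and 4 in day 28 macrophages (median log2 fold changes 1.73 and 1.86). Among nuclear members, Atp5g2 (86.9% of windows shared), Atp5l (63.4%) and Cox7c (50.4%) are uncertain for the same reason, and 9 nuclear members had over 20% of windows shared, Uqcrb (29.1%) among them. Without these, 45 of 74 tested nuclear members rose in day 2 macrophages (median 1.38). Exons of Atp5o, Ndufb6 and Ndufa13 overlap other genes over 47.9%, 39.0% and 30.0% of their length. Genes on the opposite strand cover 35.6%, 39.0% and 30.0%, so part of the Atp5o overlap is on its own strand. The strand setting is not stated, and reads of these stretches cannot be told apart from those of the overlapping genes.

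Per kilobase of the principal transcript, mt-Co1 had the highest level, with a median over the 8 group means of 2071 scaled CPM per kilobase, followed by mt-Cytb at 1943 and mt-Nd1 at 1587. The nuclear members with the highest levels per kilobase were subunits of complex IV, Cox6a1 at 822, Cox6b1 at 707 and Cox4i1 at 687. Succinate dehydrogenase subunit Sdha, which is also an enzyme of the tricarboxylic acid cycle, stood at 85.9. The isoforms Cox7a1, Ndufa4l2 and Cox4i2 had 16.6, 2.03 and 0.260.

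Summed over the nuclear members, group means of scaled CPM were lowest in controls. Single libraries overlapped, with monocyte control B at 10677 and macrophage day 28 replicate B at 10448. For macrophages at day 28 the order also rests on the TMM scaling. As a share of library counts, nuclear members held 0.983%, 1.05% and 1.11% there, against 0.964% and 1.22% in macrophage controls. Macrophage controls held 8212 ± 1907 scaled CPM (SD, n = 2), day 2 macrophages 19605 ± 3121 (SD, n = 3), day 14 macrophages 14349 ± 5911 (SD, n = 3) and day 28 macrophages 10852 ± 477 (SD, n = 3). Monocyte controls held 8250 ± 2102 (SD, n = 3), day 2 monocytes 17645 ± 2317 (SD, n = 3), day 14 monocytes 22187 ± 7246 (SD, n = 3) and day 28 monocytes 13560 ± 2151 (SD, n = 3). The mitochondrial genes followed another course. Their sum was 5656 ± 1689 in macrophage controls, 19011 ± 10094 at day 2, 9258 ± 4376 at day 14 and 18426 ± 3195 at day 28, so that it was again high at day 28 when the nuclear sum was not. In monocytes it was 2891 ± 642, 10372 ± 4642, 7995 ± 1241 and 4369 ± 1186 over the same 4 groups. The ratio of the mitochondrial to the nuclear sum was 2.05, 1.52 and 1.53 in the 3 day 28 macrophage libraries, and 1 other library, macrophage day 2 replicate B with 1.86, lay in that range. All 12 monocyte libraries had ratios between 0.212 and 0.907. Because these are bulk samples, fewer cells of a type and less RNA per cell cannot be told apart in any of these levels.

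**Figure D1:**
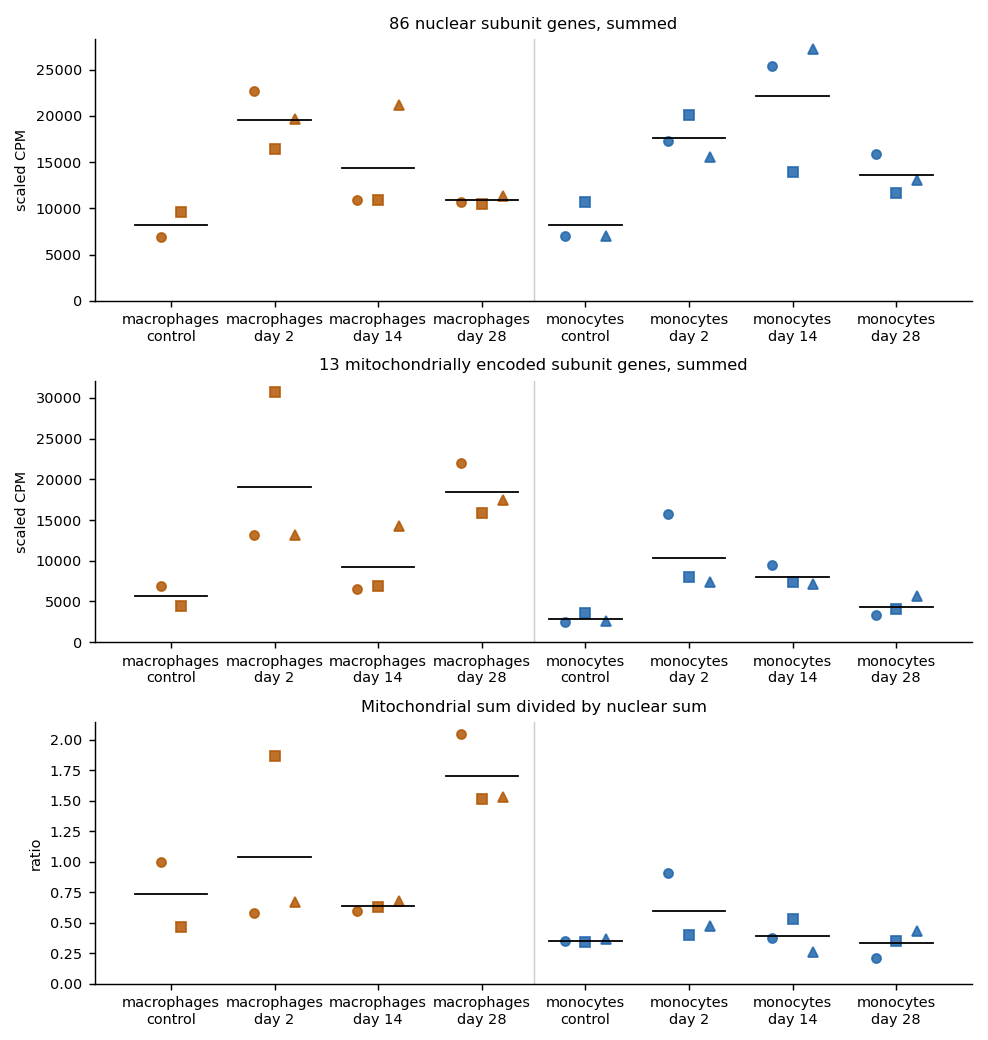
Summed scaled CPM of the nuclear members, of the mitochondrial members and their ratio, 1 point per library (replicates A, B and C as circle, square and triangle) with the group mean as a black line, macrophages in orange and monocytes in blue. The nuclear sums peak at day 2 in macrophages and at day 14 in monocytes, and the 3 day 28 macrophage libraries have ratios of 1.52 to 2.05.

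The first comparison asked how macrophages differed after 2 days with an implant (n = 3 against 2). Subunits of every complex rose. Of 83 nuclear members, 50 rose and none fell, beside 10.1% of all genes called higher and 7.1% called lower, and their median log2 fold change was 1.38 beside -0.16 over all genes. By complex, 26 of 38 rose in complex I, 2 of 4 in complex II, 4 of 9 in complex III, 7 of 15 in complex IV and 11 of 17 in complex V, with medians of 1.44, 0.60, 1.37, 1.56 and 1.36. Few of the rising members were among the 13 nuclear members classed as catalytic core. Of these 13, 2 rose (median 0.62), against 48 of the other 70 (median 1.48). The core members have longer principal transcripts (median 1623 against 732.5 bases), and the part of length in this split was not tested. The complex I subunit Ndufa9, which helps to join the arms of the complex, stood at 63.0 and 75.3 scaled CPM in the controls and at 161, 149 and 200.6 at day 2. The complex III subunit Uqcrb, a small subunit next to the cytochrome b core, stood at 54.1 and 65.1 in controls and at 260, 191 and 239.8 at day 2, with a log2 fold change of 1.95 ± 0.44 (SE, adjusted p = 0.00478). Atp5j, a subunit of the stalk that holds the ATP synthase together, stood at 100.1 and 172 against 686, 412 and 542, a log2 fold change of 2.01 ± 0.49 (SE, adjusted p = 0.00748). In each of these the groups did not overlap. The complex II subunits Sdhb, which carries iron-sulphur clusters, and Sdhd, a membrane anchor, rose by log2 fold changes of 0.92 ± 0.27 (SE, adjusted p = 0.0221) and 0.75 ± 0.22 (SE, adjusted p = 0.0224).

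The 7 well counted mitochondrial genes all rose at day 2 in macrophages, with log2 fold changes from 1.53 to 1.97 and adjusted p from 0.00697 to 0.0264. The complex I core gene mt-Nd1 stood at 1275 and 979.7 scaled CPM in controls and at 2956, 7232 and 3015 at day 2. Every day 2 library was above the controls, and replicate B was the highest in this gene and in mt-Co1 (3978, 9453 and 4041 at day 2 against 2402 and 1211). Day 2 macrophages also differed from controls in neutrophil markers, whose 10 genes summed to between 2947 and 6555 scaled CPM against 2.16 to 10.1, with Elane and Ly6g at 0 in the controls, and in macrophage markers, at 8840 to 10781 against 15035 to 16324. Their part in the rise of the subunits was not tested. The number of members called, 57, rests on few libraries. It was 5 without control A, 31 without control B, 27 without day 2 replicate A and 34 without day 2 replicate C, and with library totals in place of TMM it was 22, with nuclear and all-gene medians of 0.79 and -0.76.

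Monocytes at day 2 were compared with monocyte controls (n = 3 against 3). Of 83 nuclear members 63 rose and none fell, beside 15.5% of all genes higher and 11.5% lower, with a median log2 fold change of 1.32 beside 0.00 for all genes. The members that rose were 33 of 38 in complex I, 3 of 4 in complex II, 6 of 9 in complex III, 8 of 15 in complex IV and 13 of 17 in complex V. Of the 13 catalytic core members 7 rose (median 0.69), against 56 of the other 70 (median 1.38). Ndufa9 stood at 83.7, 116 and 73.3 scaled CPM in controls and at 207, 200.1 and 196 at day 2, a log2 fold change of 1.14 ± 0.21 (SE, adjusted p = 0.000568). Atp5f1, the b subunit of the peripheral stalk of the ATP synthase, rose by 1.41 ± 0.23 on the log2 scale (SE, adjusted p = 0.000146, 442 against 166 scaled CPM). Sdhd rose by 1.13 ± 0.19 (SE, adjusted p = 0.000268) with all 3 day 2 libraries (487, 419 and 395) above all 3 controls (173, 241 and 182). The 7 well counted mitochondrial genes rose too, with a median log2 fold change of 1.84. Of the poorly counted ones mt-Co3 was also called, at means of 0.399 against 0.0496 scaled CPM. Monocyte markers stood at 12554 to 14740.0 scaled CPM at day 2 against 5636 to 9575 in controls and fibroblast markers at 6.35 to 111 against 0.0436 to 0.142, while neutrophil markers overlapped (1771 to 4624 against 2173 to 3759). Their part was not tested. Without control A 43 of the 92 members were called and without control C 42, against 71 with all libraries and 61 without day 2 replicate A, one of the libraries that stood apart.

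Monocytes at day 14 showed the largest nuclear median of the 6 implant comparisons. Of 83 nuclear members 64 rose and 2 fell, beside 19.8% of all genes higher and 17.9% lower, with a median log2 fold change of 1.78 beside -0.03 for all genes. The count of members called was 73, and it was 62 to 73 when each library was left out in turn, with 73 without replicate B. Complex IV had the highest median, 2.09, with 11 of 15 rising, and complex II the lowest, 0.90, with 3 of 4. Of the 13 catalytic core members 5 rose and 2 fell (median 0.37), against 59 and 0 of the other 70 (median 1.92). Ndufv3, an accessory subunit of the NADH-binding module, stood at 37.3, 68.5 and 44.8 scaled CPM in controls and at 414, 184 and 437 at day 14, a log2 fold change of 2.78 ± 0.41 (SE, adjusted p = 3.58e-05). Ndufa2, another accessory subunit of that arm, stood at 71.6, 126 and 64.4 against 673, 313 and 698, a log2 fold change of 2.68 ± 0.43 (SE, adjusted p = 7.55e-05). Atp5mpl, a small membrane subunit of the ATP synthase, stood at 48.1, 88.3 and 46.5 against 463, 212 and 502, a log2 fold change of 2.69 ± 0.41 (SE, adjusted p = 5.02e-05). In all 3 genes replicate B was the lowest of the day 14 libraries and still above every control. The inhibitor of the ATP synthase, Atpif1, which is no member by the naming rule, rose with them by 2.58 ± 0.45 (SE, adjusted p = 0.000175, 282 against 47.2 scaled CPM). The 7 mitochondrial genes rose too, by up to 1.73 on the log2 scale. Fibroblast markers moved with this comparison, their 6 genes summing to between 356 and 769.5 scaled CPM at day 14 against 0.0436 to 0.142 in controls, where Pdgfra, Lum and Col1a1 were at 0. Neutrophil markers stood at 100.2 to 623 (Camp at 0) against 2173 to 3759. Their part was not tested.

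At day 28 fewer subunits stood above the monocyte controls. Of 83 nuclear members 20 rose and none fell, beside 11.7% of all genes higher and 6.52% lower, with a median log2 fold change of 0.83. They were 8 of 38 in complex I, 3 of 4 in complex II, 3 of 9 in complex III, 4 of 15 in complex IV and 2 of 17 in complex V. Ndufv3 stood at 175, 135 and 148 scaled CPM (1.61 ± 0.40, SE, adjusted p = 0.00684), and Sdhd at 330, 338 and 392 (0.83 ± 0.19, SE, adjusted p = 0.00431), in each case above every control. No mitochondrial gene passed with edgeR (1 of 9 at an unadjusted p under 0.05, 1 with DESeq2), and the 7 well counted ones had a median log2 fold change of 0.62. Neutrophil markers stood at 261 to 337 scaled CPM at day 28 against 2173 to 3759 in controls and fibroblast markers at 224 to 512 against 0.0436 to 0.142, and their part was not tested. The count of 20 ran from 7 (without control A, control C or day 28 replicate A) to 37 (without control B) and was 11 to 13 without macrophage day 2 replicate A or C, monocyte day 14 replicate A or C, or monocyte day 28 replicate C. Libraries outside a comparison enter it through the shared scaling and the shared estimate of spread. Day 28 set directly against day 2 gave no called member in monocytes with edgeR, beside 0.387% of all genes higher and 0.48% lower, with medians of -0.46 for the nuclear and -1.19 for the 7 mitochondrial genes (adjusted p from 0.0969 to 0.192). In that comparison 6 of 83 nuclear and 7 of 9 mitochondrial members had an unadjusted p under 0.05, and DESeq2 called 2 and 5.

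At day 14 in macrophages edgeR called Ndufa4l2, Ndufa9 and Ndufv1, the subunit that binds NADH, higher among 83 nuclear members, and none lower, beside 5.51% of all genes higher and 2.7% lower. An unadjusted p under 0.05 was found for 39 of the 83, and DESeq2 called 7. The nuclear median was 0.86 and that of the 7 mitochondrial genes 0.64. None of the 9 tested was called by edgeR or DESeq2 or had an unadjusted p under 0.05. The day 14 libraries were spread widely: Uqcrb stood at 93.5, 81.2 and 209 scaled CPM and mt-Nd1 at 1226, 1313 and 3215, with replicate C high in both. Neutrophil markers stood at 68.9 to 282 scaled CPM against 2.16 to 10.1 in controls and fibroblast markers at 13.2 to 54.9 against 168 to 176, and their part was not tested. No member was called without macrophage control A, and 6 without monocyte control B.

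At day 28 (n = 3 against 2) 4 nuclear members rose (Ndufa4l2, Ndufa9, Ndufv1 and Sdhc, a membrane anchor of complex II) and none fell, beside 6.57% of all genes higher and 3.99% lower. The nuclear median log2 fold change was 0.41 with TMM scaling and turned to -0.05 with library totals, where the median of all genes was -0.51. In the same libraries 6 of the 7 well counted mitochondrial genes rose, by a median of 1.69 (up to 1.95, adjusted p from 0.00794 to 0.0511, mt-Nd2 not passing). The median over all 9 tested mitochondrial genes, which include the poorly counted mt-Co3 and mt-Atp6, was 1.86, and 1.37 with library totals. A median of the 7 well counted genes with library totals is not given. The gene mt-Nd5 stood at 464 and 311 scaled CPM in controls and at 1583, 1101 and 1611 at day 28, a log2 fold change of 1.89 ± 0.46 (SE, adjusted p = 0.0106). The gene mt-Cytb, the complex III subunit of mitochondrial DNA, stood at 1927 and 1350.2 against 6176, 4439 and 4222 (1.59 ± 0.45, SE, adjusted p = 0.0273). Day 28 libraries lay above both controls in each. Neutrophil markers stood at 60.7 to 256 scaled CPM at day 28 (Ly6g at 0) against 2.16 to 10.1 in controls and fibroblast markers at 15.7 to 95.7 against 168 to 176, and their part was not tested. Of all 92 members 10 were called, 3 without control A, 1 without control B and 6 without day 28 replicate A, the library with low levels of genes of high GC content. No mitochondrial gene was called without control B.

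Setting macrophages at day 28 against day 2 (n = 3 against 3), 13 nuclear members fell and none rose, beside 1.97% of all genes lower and 2.28% higher. The nuclear median was -1.08 beside 0.04 for all genes. Other short genes fell nearly as far: with principal transcripts of up to 800 bases, members had a median of -1.13 and other genes -0.90. Those that fell included 8 of complex I, 1 of complex III, 1 of complex IV and 3 of complex V, while the 4 complex II genes had a median of 0.07. Atp5j stood at 159, 159 and 216 scaled CPM at day 28 against 686, 412 and 542 (-1.62 ± 0.41, SE, adjusted p = 0.0326), and Ndufv3 at 89.2, 107 and 148 against 460, 243 and 302 (-1.55 ± 0.39, SE, adjusted p = 0.0328). Of the 9 mitochondrial genes tested, with a median of -0.11, 0 were called by edgeR or DESeq2 and 0 had an unadjusted p under 0.05. Neutrophil markers were lower too, at 60.7 to 256 scaled CPM against 2947 to 6555, and their part was not tested. This count was the least stable of those above. It was 1 without day 2 replicate A or C or day 28 replicate A or B, 2 without day 2 replicate B and 8 without day 28 replicate C, and it lay between 5 and 8 without monocyte control A or C, monocyte day 2 replicate A or B, or monocyte day 14 replicate A, and at 24 without macrophage day 14 replicate C.

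**Figure D2:**
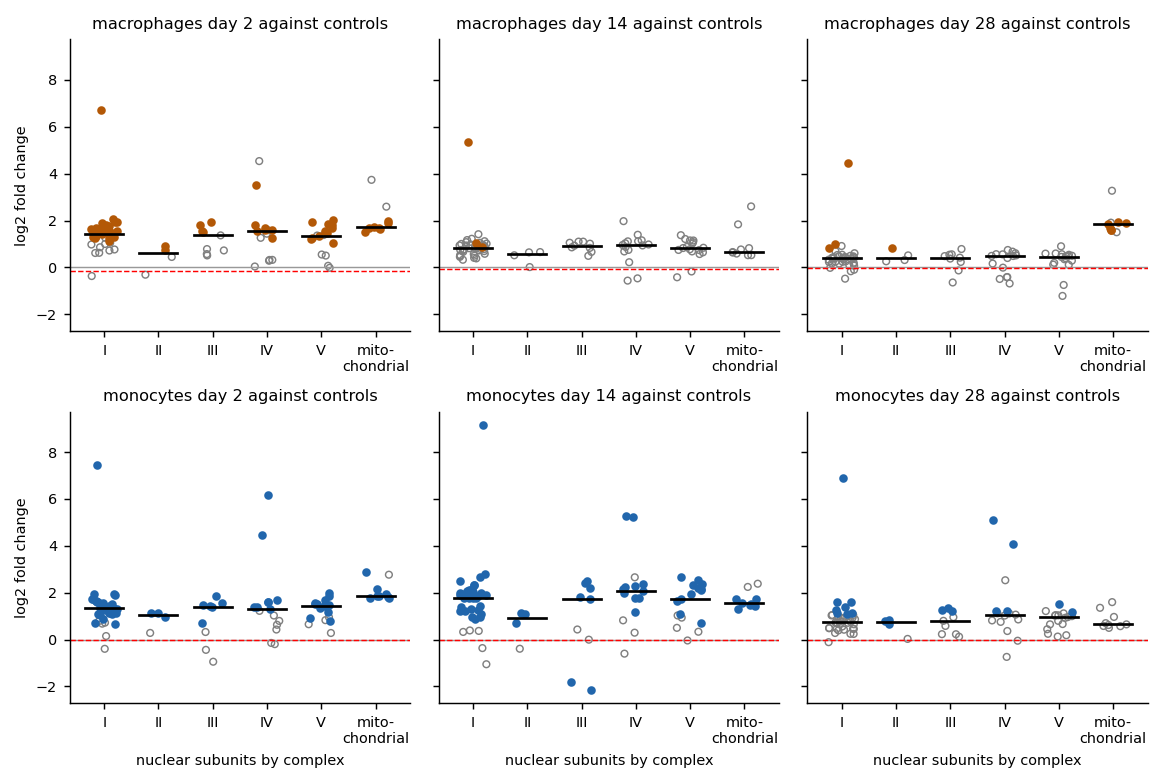
Log2 fold change of each tested member in the 6 comparisons of implant against control, by complex of the nuclear members with the mitochondrial members in the last column. Filled points are members called at an adjusted p under 0.05, black bars are medians and the red dashed line is the median of all genes. The complexes I, III, IV and V lie well above the line at day 2 in both cell types and at day 14 in monocytes, and at day 28 in macrophages the mitochondrial column stands above the nuclear columns.

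Comparing the cell types directly, the contrast between genomes was largest at day 28. There 0 of 83 nuclear members were called by edgeR, beside 1.49% of all genes higher and 1.03% lower in macrophages, and their median log2 difference was -0.34. At an unadjusted p under 0.05 there were 7, and DESeq2 called 2. All 7 well counted mitochondrial genes were higher in macrophages, by a median of 2.15 (range 1.70 to 2.51, adjusted p from 0.00407 to 0.023). The gene mt-Nd1 stood at 4943, 3473 and 3856 scaled CPM in day 28 macrophages and at 633, 618 and 907 in day 28 monocytes. The gene mt-Cytb stood at 6176, 4439 and 4222 against 754, 938 and 1334, and the gene mt-Co1 at 6946, 5102 and 5389 against 1281, 1780 and 2305. The cell types did not overlap in any of the 3. The calls came to 4 without macrophage day 28 replicate A, monocyte day 28 replicate A or monocyte day 28 replicate B, where mt-Co1, mt-Nd4 and mt-Nd6 no longer passed. In controls the same 7 genes were also higher in macrophages, by a median of 0.95, but none passed (adjusted p from 0.0537 to 0.412). Of the 9 tested, 5 had an unadjusted p under 0.05 and DESeq2 called 3. The difference between cell types in the response at day 28, tested as an interaction, had a median of 1.02 over these genes and none passed (adjusted p from 0.193 to 0.527). For 2 of the 9 tested the unadjusted p was under 0.05, and DESeq2 called 0.

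At the other times edgeR called fewer than 10 members between the cell types. Among controls Cox7a1 was higher in macrophages and Cox6b2 lower, beside 7.61% of all genes higher and 4.9% lower. At day 2 Ndufa4l2 and Cox7a1 were higher in macrophages and none was lower, beside 1.64% higher and 1.78% lower. At day 14 Ndufab1 and Cyc1 were higher in macrophages and Ndufa1, Ndufa3, Ndufa4, Ndufs4 and Cox6b2 lower, beside 5.34% higher and 4.02% lower, with a nuclear median of -0.78. The libraries of the cell types overlapped in Ndufa1, Ndufa3, Ndufa4 and Ndufs4, and not in Ndufab1, Cyc1 and Cox6b2. The Ndufab1 call is not given without monocyte day 14 replicate B, where this gene was low. There 46 of 83 nuclear members had an unadjusted p under 0.05, and DESeq2 called 24. Without macrophage day 14 replicate C, the library with the highest nuclear levels of its group, 45 members were called at day 14. The count there was 0 without macrophage day 14 replicate B or monocyte day 14 replicate C, 1 without replicate A of either and 17 without monocyte day 14 replicate B, where Cyc1 no longer passed (1.99, adjusted p = 0.123). Leaving out libraries of the other times gave counts of 4 without monocyte day 2 replicate B, 11 without monocyte control B and 12 without macrophage day 28 replicate C.

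Some of the largest fold changes were those of isoforms. Ndufa4l2, a homologue of Ndufa4 known as a target of hypoxia-inducible factor, was at 0 and 0.210 scaled CPM in macrophage controls. It stood at 19.5, 9.30 and 12.3 at day 2, at 4.90, 3.57 and 7.54 at day 14 and at 3.31, 1.55 and 3.75 at day 28. All 9 implant libraries of macrophages were above both controls, with log2 fold changes of 6.73 ± 1.36 (SE, adjusted p = 0.00231), 5.37 ± 1.28 (adjusted p = 0.0124) and 4.48 ± 1.24 (adjusted p = 0.0254). The day 14 call was lost without macrophage control A (adjusted p = 0.156), and the day 28 call without control A (0.18) or control B (0.0562). In the 3 monocyte controls Ndufa4l2 had 0 counts, and it was at least 34.9-fold higher at day 2, 122-fold at day 14 and 26.5-fold at day 28, against a floor of 3 counts over the control group. Its levels there were low, at 1.34, 1.39 and 0.0478 scaled CPM at day 2, 4.98, 0.863 and 3.27 at day 14 and 0.618, 0.195 and 1.08 at day 28. Ndufa4, the usual subunit, stood at 116 and 167 scaled CPM in macrophage controls and at 287, 234 and 249.7 at day 2, with a median level per kilobase of 318 scaled CPM against 2.03 for Ndufa4l2. Both are grouped here under complex I by name, although Ndufa4 is now known as a subunit of complex IV.

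Cox7a1 is the isoform of Cox7a known from heart and skeletal muscle, and Cox7a2 the isoform found in most tissues. Cox7a1 stood at 3.46 and 4.56 scaled CPM in macrophage controls, at 60.6, 31.5 and 46.6 at day 2, at 6.70, 5.86 and 19.2 at day 14 and at 4.02, 7.91 and 7.30 at day 28. Its rise at day 2 had a log2 fold change of 3.52 ± 0.65 (SE, adjusted p = 0.000861), and its fall from day 2 to day 28 was -2.85 ± 0.53 (SE, adjusted p = 0.00585). In monocytes it stood at 0.305, 0.398 and 0.189 in controls, 9.44, 7.17 and 3.20 at day 2, 14.7, 5.23 and 13.7 at day 14 and 6.80, 4.83 and 3.44 at day 28, and it rose at each time, by 4.45 ± 0.60, 5.22 ± 0.61 and 4.06 ± 0.59 (SE, adjusted p of 1.75e-05, 2.21e-06 and 4.03e-05). Every implant library of monocytes was above every control. In macrophages Cox7a1 did not pass at day 14 (1.39 ± 0.59, SE, adjusted p = 0.153) or day 28 (0.67 ± 0.57, SE, adjusted p = 0.511). The change was larger in monocytes at both times by the test of the interaction (macrophage change minus monocyte change), where Cox7a1 had values of -3.82 ± 0.78 (SE, adjusted p = 0.00453) and -3.38 ± 0.78 (SE, adjusted p = 0.0107). These interactions are set beside 3.25% of all genes higher and 4.29% lower at day 14, and 2.23% and 3.55% at day 28. They rest on the controls, where Cox7a1 was higher in macrophages than in monocytes (3.74 ± 0.61, SE, adjusted p = 0.000215). Control means were 4.01 scaled CPM (n = 2) and a low 0.298 (n = 3). Between the cell types it was not called at day 14 (-0.08 ± 0.50, SE, adjusted p = 0.945) or day 28 (0.35 ± 0.50, SE, adjusted p = 0.759). At day 2 none of the members passed the interaction with edgeR or DESeq2 or had an unadjusted p under 0.05, beside 1.37% of genes higher and 2.42% lower. Skeletal muscle markers, 8 genes, summed to 9.59 to 12.7 scaled CPM in day 2 macrophages against 32.0 to 42.4 in their controls. Myh1 and Myh4 were at 0 in day 2 macrophages. In day 28 macrophages these markers summed to 13.3 to 80.8. In monocytes they summed to 19.7 to 32.2 at day 14 against 9.002 to 14.3 in controls. At day 28 the monocyte sums reached 62.9 and overlapped the controls. The part of these markers in the changes of Cox7a1 was not tested.

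Cox7a2 rose as well, with smaller log2 fold changes. It stood at 81.8 and 110.3 scaled CPM in macrophage controls and 376, 229.6 and 327 at day 2 (1.69 ± 0.44, SE, adjusted p = 0.0125), and in monocytes it rose by 1.67 ± 0.38 at day 2 and 2.39 ± 0.39 at day 14 (SE, adjusted p of 0.00326 and 0.000106). Cox4i2, the isoform of Cox4 known from lung and low oxygen, had 0 counts in the monocyte controls and was at least 13.8-fold, 7.80-fold and 7.15-fold higher at days 2, 14 and 28. It had only 17, 10 and 10 counts at these times, pooled over each group, and at day 28 it overlapped the controls. In macrophages at day 2 it had 56 counts against 3, a ratio of 16.9 with a counting interval of 5.50 to 84.5. Its highest library held 2.30 scaled CPM, against 245 to 1413 for Cox4i1 over all libraries. Cox6b2, the isoform of Cox6b known from testis, stood at 4.78 to 8.04 scaled CPM in monocyte controls against 0.849 and 2.25 in macrophage controls, a difference of -2.02 ± 0.65 (SE, adjusted p = 0.046) that was lost without macrophage control A (adjusted p = 0.333). The floors and counting intervals cover counting error only.

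**Figure D3:**
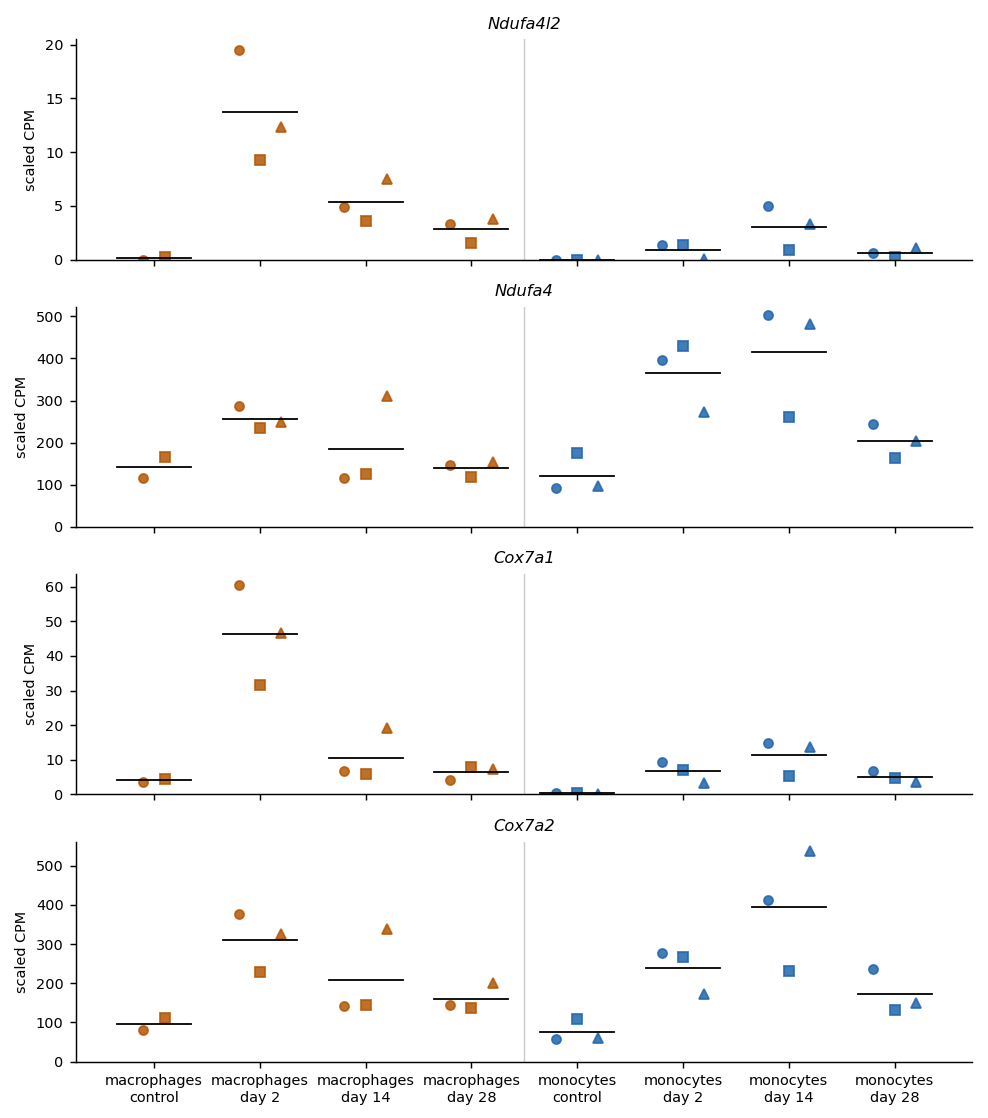
Scaled CPM of Ndufa4l2, Ndufa4, Cox7a1 and Cox7a2 in each library (replicates A, B and C as circle, square and triangle), with the group mean as a black line, macrophages in orange and monocytes in blue. Cox7a1 reaches 31.5 to 60.6 in day 2 macrophages and stays under 20 scaled CPM in every other library.

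Over the 23 libraries and among genes with a mean of at least 10 scaled CPM, the genes whose levels ranked most like Ndufa4l2 were Vdac1, Bst1, St13, P4ha2 and Cxcl1 (Spearman 0.940 to 0.923). Those most like Cox7a1 were led by Clybl, Ccdc58, Rnf7 and Mrpl13 (0.972 to 0.939). These are descriptions over libraries that share their groups.

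The members that went against the rest in monocytes at day 14 were both of complex III. Cyc1, the cytochrome c1 subunit that carries heme, stood at 105, 139 and 112 scaled CPM in controls and at 54.3, 12.3 and 34.3 at day 14, a log2 fold change of -1.82 ± 0.70 (SE, adjusted p = 0.0475). Uqcrfs1, the Rieske iron-sulphur protein, stood at 107, 164 and 105 in controls and at 38.6, 12.0 and 33.3 at day 14, a log2 fold change of -2.16 ± 0.62 (SE, adjusted p = 0.0099). The day 14 libraries were below all controls in both genes, and replicate B was the lowest. The Uqcrfs1 fall differed from the change in macrophages (interaction 3.26 ± 0.93, SE, adjusted p = 0.0372), where it stood at 60.8, 108 and 152 at day 14 against 29.8 and 69.7. This interaction was no longer called without macrophage control A (adjusted p = 0.177) or without monocyte day 14 replicate B (2.95, adjusted p = 0.0628). Without monocyte day 14 replicate B the Uqcrfs1 fall was -1.89 and still called (adjusted p = 0.0379), and the Cyc1 fall was -1.51 and not called (adjusted p = 0.131). The Cyc1 call was lost under 14 of 30 alternatives.

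Cyc1, Uqcrfs1, Cox5a, a matrix-side subunit of complex IV, and Ndufab1, the acyl carrier protein of complex I, shared a pattern over libraries. Their Spearman correlation with Cyc1 was 0.87 for Uqcrfs1, 0.83 for Cox5a and 0.795 for Ndufab1 over the 23 libraries, and 0.447 for the next member, Atp5d. Cyc1 was lowest in monocyte day 14 replicate B (12.3 scaled CPM), monocyte day 2 replicate A (13.2) and macrophage day 28 replicate A (18.8), the 3 libraries with low levels of genes of over 60% GC. Cox5a stood at 5.23, 8.65 and 12.6 and Ndufab1 at 2.75, 4.33 and 7.38 in the same libraries. The GC content of the transcripts themselves was 55.7% for Cyc1, 48.6% for Uqcrfs1, 49.0% for Cox5a and 45.3% for Ndufab1. The genes most like Cyc1 over all libraries were Emc6, Dda1, Mrfap1, Exosc3 and Ddx28 (Spearman 0.945 to 0.929). Cyc1 varied widely within day 2 monocytes (13.2, 48.3 and 201 scaled CPM) and little within day 28 monocytes (178 ± 4.21, SD, n = 3). The part of the libraries' composition was not tested.

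**Figure D4:**
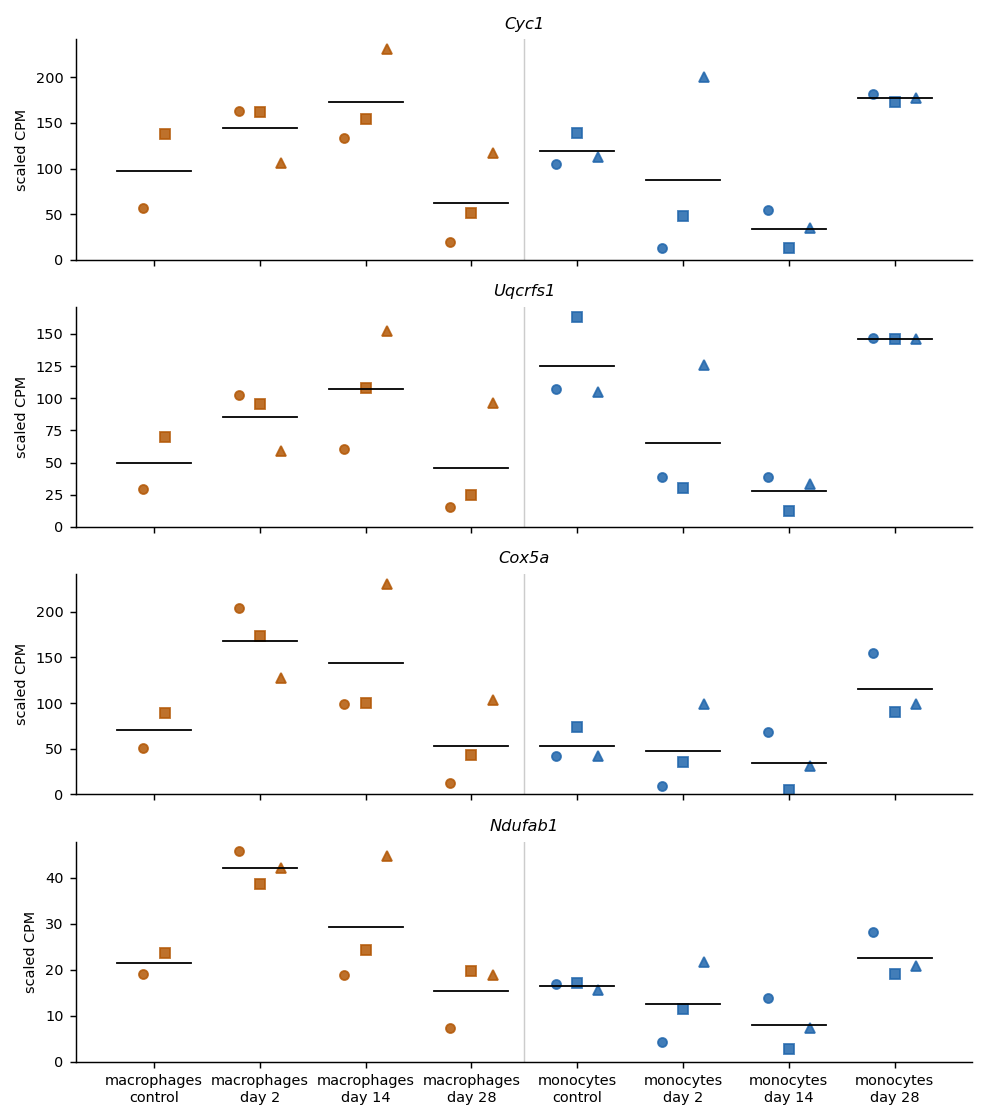
Scaled CPM of Cyc1, Uqcrfs1, Cox5a and Ndufab1 in each library (replicates A, B and C as circle, square and triangle), with the group mean as a black line, macrophages in orange and monocytes in blue. The low points in monocytes at day 2 and day 14 and in macrophages at day 28 fall in the same libraries in all 4 genes.

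Transcript length moved with the changes in all genes. Among members whose principal transcript has up to 800 bases, 29 of 39 rose in day 2 macrophages with a median of 1.54, and among the 1472 other genes of that length 14.7% rose with a median of 1.01. In monocytes at day 14, 35 of 39 such members rose with a median of 1.99, against 28.9% and 1.21 for other genes. In macrophages against monocytes at day 14, such members had a median of -0.89 and other genes of that length -0.73. Across the 83 nuclear members the Spearman correlation of log2 fold change with length was -0.43 in day 2 macrophages and -0.52 in day 14 monocytes, and 0.05 in day 28 macrophages, and across 16198 genes it was -0.26, -0.22 and -0.02. Across the 23 libraries the median deviation of the nuclear members followed that of other genes of up to 800 bases with a Pearson correlation of 0.971 and a Spearman correlation of 0.948. The mitochondrial genes followed those short genes less closely, at 0.442 and 0.425. With an offset for principal transcript length, the median nuclear change in day 2 macrophages was 0.87 beside 0.03 for all genes. Genes and libraries of a group are not independent, so these values are descriptions, and the part of transcript length in the subunit changes was not tested.

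**Figure D5:**
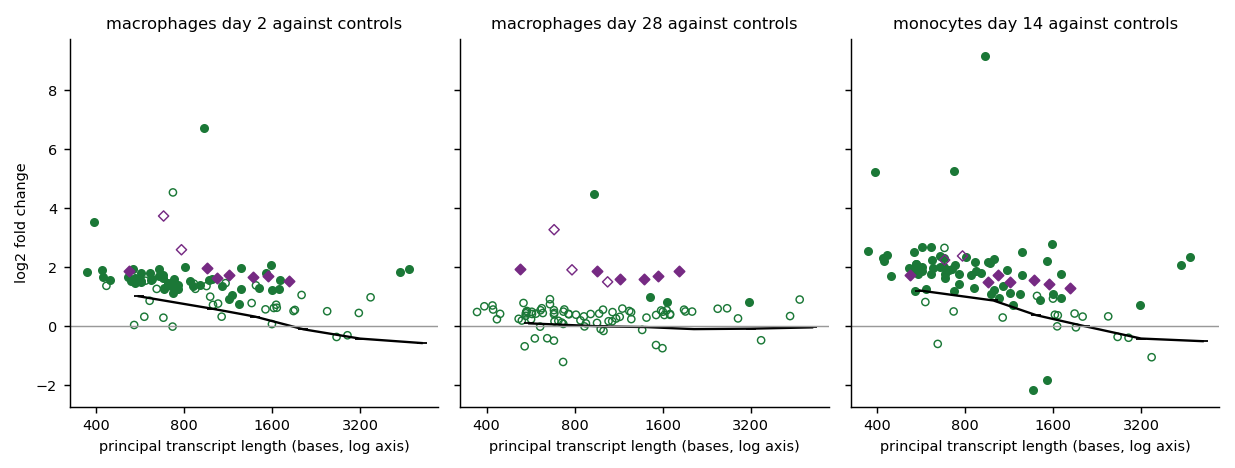
Log2 fold change of members against principal transcript length in bases (log axis) in macrophages at day 2 and day 28 and in monocytes at day 14, with nuclear members as green circles, mitochondrial members as purple diamonds, called members filled, and a black line through the medians of other genes in 6 length bins. The black line falls with length in the first and last comparison, from 1.01 to -0.57 at day 2 in macrophages, and is nearly flat at day 28.

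Promoters of the nuclear members were searched for sequences of factors known to act on respiratory genes, since many members moved together. RefSeq gave the 250 bases before the gene start for 67 of the 86 nuclear members and for 27025 genes in all, on GRCm38.p6, and both strands were searched. The palindromic core of NRF-1, the run in capitals below, was in 4 member promoters (Atp5g2, Atp5k, Cox6a1 and Ndufa11), 5.97% against 0.877% of all. The ETS core CCGGAAG was in 12, 17.9% against 7.83%. The YY1 core AAGATGGC was in 1, 1.49% against 1.83%. The short hypoxia-response core, ACGTG or GCGTG, was in 35, 52.2% against 41.5%. The NRF-1 examples with the match in capitals are Cox6a1 at chr5:115348959-115349208 (minus strand), whose match starts 162 bases before the gene start, and Atp5k at chr5:108434400-108434649 (minus strand), at 50 bases.
Cox6a1: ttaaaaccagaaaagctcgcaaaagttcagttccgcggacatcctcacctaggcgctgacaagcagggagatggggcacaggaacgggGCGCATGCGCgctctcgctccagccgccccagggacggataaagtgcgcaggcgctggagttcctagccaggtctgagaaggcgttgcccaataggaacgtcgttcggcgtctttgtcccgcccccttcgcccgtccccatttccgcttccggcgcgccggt
Atp5k: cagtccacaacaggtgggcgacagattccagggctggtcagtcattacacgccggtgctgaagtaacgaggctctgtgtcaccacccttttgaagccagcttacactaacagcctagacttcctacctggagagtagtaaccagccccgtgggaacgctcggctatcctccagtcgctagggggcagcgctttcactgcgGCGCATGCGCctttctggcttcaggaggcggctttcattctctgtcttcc
Atp5k, a small membrane subunit of the ATP synthase, rose in day 2 macrophages by 1.84 ± 0.51 (SE, adjusted p = 0.0181) and in day 14 monocytes by 2.55 ± 0.45. The Cox7a pair is shown because Cox7a1 moved more than Cox7a2, with the hypoxia core in capitals on either strand. Cox7a1 lies at chr7:30183921-30184170 (plus strand) with matches starting 53 and 25 bases before the gene start, and Cox7a2 at chr9:79759854-79760103 (minus strand) with 1 match at 111 bases.
Cox7a1: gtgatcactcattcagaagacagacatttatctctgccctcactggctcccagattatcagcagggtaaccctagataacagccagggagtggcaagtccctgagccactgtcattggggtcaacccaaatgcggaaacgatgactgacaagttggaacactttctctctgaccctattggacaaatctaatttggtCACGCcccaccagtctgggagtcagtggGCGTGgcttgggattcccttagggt
Cox7a2: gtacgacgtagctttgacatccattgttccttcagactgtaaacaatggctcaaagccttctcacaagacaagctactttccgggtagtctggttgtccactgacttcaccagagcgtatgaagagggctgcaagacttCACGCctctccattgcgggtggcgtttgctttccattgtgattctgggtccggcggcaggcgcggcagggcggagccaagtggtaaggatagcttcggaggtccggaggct
Both promoters hold the core, as did at least 1 promoter in 41.5% of all genes searched. The positions above count from the RefSeq gene start. GENCODE M21 starts Cox7a1 at chr7:30184144 and Atp5k at chr5:108434448, inside the stretches shown. By those starts the Cox7a1 match at 25 bases and most of the Atp5k match lie within the gene. A match is a description of letters, not a bound site.

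Other genes of the pathway were read against the shares of all genes called, 10.1% higher and 7.1% lower in day 2 macrophages, 15.5% and 11.5% in day 2 monocytes, 19.8% and 17.9% in day 14 monocytes, and 6.57% and 3.99% in day 28 macrophages. Of 48 tested assembly factors, 10 rose and 0 fell in day 2 macrophages (20.8% and 0%, median 0.41), among them Higd1a, a hypoxia-inducible regulator of complex IV (3.30 ± 0.56, SE), and the copper chaperone Cox17 (2.21 ± 0.40). In day 14 monocytes 15 rose and 9 fell (31.2% and 18.8%, the latter near the share of all genes), with Cox17 at 3.72 ± 0.36. Of 29 genes of mitochondrial biogenesis and DNA maintenance, 1 rose and 1 fell in day 2 macrophages (3.45% each, below the shares of all genes), the latter the mitochondrial RNA polymerase Polrmt (-2.02 ± 0.65, SE, adjusted p = 0.0369). In day 14 monocytes 2 rose and 8 fell (6.9% and 27.6%), including the mitochondrial DNA polymerase Polg (-3.28 ± 0.48, SE, adjusted p = 3.2e-05). Of 18 genes of the tricarboxylic acid cycle, 1 rose (Mdh2, 1.26 ± 0.23) and 1 fell (Fh1, -1.67 ± 0.32) in day 2 macrophages (5.56% each, below the shares of all genes), and in day 28 macrophages 2 rose, including citrate synthase Cs (1.36 ± 0.32), and 2 fell, including Idh2 (-2.66 ± 0.59), 11.1% each. Of 77 mitochondrial ribosomal proteins 23 rose in day 2 macrophages, 36 in day 2 monocytes and 38 in day 14 monocytes (29.9%, 46.8% and 49.4%), where 9 fell (11.7%). Of 82 cytosolic ribosomal proteins, also short transcripts, 30, 43 and 53 rose in these comparisons (36.6%, 52.4% and 64.6%). In day 28 macrophages 29 of 38 genes of glycolysis and hypoxia rose (76.3%), with a median of 2.45. In that comparison 4 of 83 nuclear subunits rose (4.82%, below the 6.57% of all genes), and so did 6 of the 7 well counted mitochondrial genes.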

How the data were processed

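The authors deposited whole-number counts for 47729 entries, with no normalization. Single reads of 75 bases from SMART-Seq v4 and Nextera XT libraries, per the labels' protocols, were demultiplexed with bcl2fastq, mapped to GRCm38 by STAR 2.4.1d and assigned by featureCounts (Subread 1.5.1), per the submitters' processing notes. Strand setting, annotation release and treatment of multiple matches are not stated there.

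GENCODE M21 supplied symbols, transcripts and lengths for 47310 entries. All 23 libraries in 8 groups entered a single edgeR 4.0.16 fit (R 4.3.3, limma 3.58.1): filterByExpr, TMM factors, robust quasi-likelihood F tests of 15 contrasts. A member rose or fell where the Benjamini-Hochberg adjusted p over all 16260 genes was under 0.05. The prior count was 0.125, and each SE was computed as |log2 fold change| / sqrt(F). The code was tested on simulated data. The members and lists were chosen with earlier results of these data known.

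Named with values were the mitochondrial members, up to 2 nuclear members per complex and comparison with the smallest adjusted p and no overlap of groups, called members that went against the majority, isoform pairs, and up to 3 called genes per other list. Ndufv1, Cox5a, Ndufab1, Atp5k, Atpif1 and called members in groups of 5 or fewer were named after their values were seen. Alternatives were DESeq2 1.42.0, its size factors, no filter, a replicate block, an exon length offset and leaving out each library. Library totals and a principal transcript length offset were added after seeing the data. A gene withheld from the text is not reported here.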

Additional observations from a re-analysis of the deposited data

Results flagged for a closer look

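For 2 genes the response to the implant differed between the cell types by the test of the interaction with edgeR. The change of Cox7a1 was larger in monocytes, where it was called, than in macrophages, where it was not, at day 14 (interaction -3.82 ± 0.78, SE, adjusted p = 0.00453) and at day 28 (-3.38 ± 0.78, SE, adjusted p = 0.0107). The day 14 call held under all 30 alternatives, and the day 28 call was lost without macrophage control B (-3.12, adjusted p = 0.0525). Among controls Cox7a1 was higher in macrophages than in monocytes (3.74 ± 0.61, SE, adjusted p = 0.000215). Between the cell types it was not called at day 14 or day 28, so its interactions rest on the difference between controls. Uqcrfs1 fell in day 14 monocytes and had higher levels in day 14 macrophages than in their controls without a call, and its interaction was 3.26 ± 0.93 (SE, adjusted p = 0.0372), a call that was lost under 7 of 30 alternatives. All groups held 2 or 3 libraries, so single libraries that stand apart from their group were not looked for by a test.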

How the results depend on the processing

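Counts of members called out of 92 moved with several settings. In macrophages against controls, day 2 (57) gave 22 with library totals, day 14 (3) gave 10 without the low count filter, 7 with DESeq2, 8 with an exon length offset, 1 with library totals and 11 with a principal transcript length offset, and day 28 (10) gave 4 with library totals and 19 with the transcript offset. Day 28 against day 2 in macrophages (13) gave 38 without the filter, 42 with DESeq2 and 4 with the transcript offset. Monocytes at day 28 (20) gave 33 without the filter, 33 with DESeq2 and 7 with library totals, and against day 2 (0) they gave 10 and 7 without the filter and with DESeq2. Macrophages against monocytes gave, in controls (2), 7 without the filter, 8 with DESeq2, 4 with the exon offset, 5 with library totals and 4 with the transcript offset. At day 2 (2) they gave 7, 4 and 5 without the filter, with DESeq2 and with the transcript offset, and at day 14 (7) 11 with DESeq2 size factors, 17 without the filter, 24 with DESeq2, 29 with the exon offset and 21 with the transcript offset. The interactions gave 1 at day 2 without the filter, 7 at day 14 (2) without the filter and with DESeq2, and 2 at day 28 (1) without the filter.

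Replicate letters were not treated as pairs. Residuals of libraries of the same letter had a mean correlation of -0.011 (77 pairs) against 0.005 for other pairs (154). These pairs run over all groups and days. They therefore cannot decide whether macrophages and monocytes of the same letter and time came from the same mice. A replicate block gave 47 calls in day 2 macrophages, 1 in macrophages at day 28 against day 2, 11 in day 28 monocytes, and 1 and 2 between the cell types at days 2 and 14.

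With each library left out in turn, macrophages against controls ran from 5 to 63 at day 2, 0 to 6 at day 14 and 1 to 11 at day 28, and from 1 to 24 for day 28 against day 2. Monocytes ran from 42 to 71, 62 to 73 and 7 to 37, and stayed at 0 for day 28 against day 2. Between cell types the counts ran from 1 to 5 in controls, 1 to 3 at day 2, 0 to 45 at day 14 and 4 to 9 at day 28, and for the interactions from 0 to 0, 1 to 21 and 0 to 2. With 1 macrophage control left, its spread is taken from the other groups. No named gene reversed: of 2645 values of 115 named results with 1 library left out, 2412 kept their call and 233 lost it, and with library totals 82 kept it and 33 lost it. Depth limits genes of few counts, such as Cox4i2 and 6 mitochondrial genes.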
